A study of Mus musculus with 15 samples.

Results

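Metabotropic glutamate receptors are the G protein-coupled receptors of the excitatory transmitter glutamate, and Homer proteins are scaffolds that bind some of them at the postsynaptic density. The 9 genes described here, taken by symbol from the 26145 genes listed for every library, were Grm5 (group I), Grm2 and Grm3 (group II), Grm4, Grm7 and Grm8 (group III), and Homer1, Homer2 and Homer3. Single-cell RNA sequencing was performed with the 10X Chromium platform on dissociated prefrontal cortex (PFC) of male C57BL/6N mice without a transgene, with the tissue of 2 animals pooled in each library. The stated number of P21 mice would fill fewer than 3 such pools, so that P21 libraries may share animals. The 3 libraries named P21 came from mice of 3 weeks that received no self-administration. The 12 libraries named P60 came from mice labelled 8 to 10 weeks old, after intravenous self-administration (IVSA) of saline or cocaine. There were 2 libraries for each of 6 groups: either solution, collected in the Maintenance phase, after 48 h or after 15 d of withdrawal. The paper implanted catheters at P60, before self-administration and withdrawal. Mice may therefore have been older than the label at collection, and their age may differ between periods. A tissue label of the samples reads NAc, whereas their titles and source name read PFC, and PFC is used here.

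Group I receptors act through Gq, phospholipase C and release of stored calcium, and sit mainly around the postsynaptic site. Group II and group III receptors act through Gi/o, lower cyclic AMP, and are best known for dampening transmitter release from the axon, with Grm3 also being a receptor of glia. Homer proteins join the tail of group I receptors to Shank scaffolds and to calcium channels of the endoplasmic reticulum, and a short activity-induced form of Homer1 can break that link.

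The promoter windows of 3 members are shown because these genes recur in the comparisons below. The windows come from RefSeq (build GRCm38.p6), run 5′ to 3′ along the gene's strand, and reach from 250 bases before to 50 bases after the annotated start. Capitals mark TGACGT, the first letters of the cyclic AMP response element (CRE) TGACGTCA that contains it, or the GC box CCGCCC, each on either strand.
Homer1 promoter, chr13:93303507-93303806, plus strand: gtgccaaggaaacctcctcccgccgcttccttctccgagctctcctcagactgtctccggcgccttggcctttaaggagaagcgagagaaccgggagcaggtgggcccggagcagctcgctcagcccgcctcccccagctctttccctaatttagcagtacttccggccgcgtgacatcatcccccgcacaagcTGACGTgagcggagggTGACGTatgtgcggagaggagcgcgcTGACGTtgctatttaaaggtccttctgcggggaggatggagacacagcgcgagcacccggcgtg
Homer2 promoter, chr7:81706876-81707175, minus strand: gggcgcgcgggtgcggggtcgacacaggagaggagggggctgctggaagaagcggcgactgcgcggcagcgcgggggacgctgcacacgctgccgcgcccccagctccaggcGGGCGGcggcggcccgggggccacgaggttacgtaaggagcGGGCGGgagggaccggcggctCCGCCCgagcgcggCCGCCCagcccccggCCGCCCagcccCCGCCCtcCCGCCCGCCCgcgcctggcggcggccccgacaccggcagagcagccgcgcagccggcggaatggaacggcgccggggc
Grm3 promoter, chr5:9725303-9725602, minus strand: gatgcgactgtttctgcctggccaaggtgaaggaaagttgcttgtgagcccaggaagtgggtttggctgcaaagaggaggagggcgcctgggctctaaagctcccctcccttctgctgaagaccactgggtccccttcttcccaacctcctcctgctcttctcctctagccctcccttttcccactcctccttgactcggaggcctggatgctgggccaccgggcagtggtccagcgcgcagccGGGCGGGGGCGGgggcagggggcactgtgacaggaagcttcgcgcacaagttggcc
The Homer1 window shown held 3 copies of TGACGT, at 56, 40 and 14 bases before the start, while another Homer1 window, not shown, held 0. Of 32851 promoter windows of this length, 7.51% held at least 1 copy and 0.201% held 3 or more. The Homer2 window shown was 82.3% G and C and held 8 GC boxes, while another Homer2 window, not shown, was 52.3% G and C and held 0. The Grm3 window held 2 GC boxes that lie side by side at the start, and 35.7% of all windows held at least 1. The table had 12 windows for 7 members (Grm4 and Grm5 had none), of which 7 held a GC box, 1 held TGACGT, 1 held TATAAA (13.6% of all windows) and 0 held TGACGTCA (1.79%) or the E-box CACGTG (7.15%). These matches describe the letters only.

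The deposited cell table retained 10538 of 12004 P21 barcodes and 24822 of 31791 P60 barcodes, with 8375172 to 42892922 unique molecular identifiers (UMIs, counted molecules) per library and a median of 3426 to 11334.5 UMIs per cell. At most 40 deposited barcodes, and at most 27 of retained cells, were shared by any 2 libraries. The authors' 8 classes and their finer L2 clusters (Exc_ and Inhib_ with a number) were used as deposited. Each class had the highest summed level of its own fixed markers at P60 (8 of 8) and at P21 (8 of 8). The paper named the classes by known markers, several of them in these lists, so this is no independent check. At P21 the lead of oligodendrocyte precursors in their markers was small, at 398 CPM against 373 CPM in oligodendrocytes. However, in P21 glia the class and the cluster of a cell often disagreed, in 147 of 329 microglia, 29 of 51 oligodendrocyte precursors (OPC) and 99 of 405 astrocytes, against at most 3 cells of any glial class at P60. Levels below are counts per 1000000 UMIs of the class or cluster in a library (CPM), without the 13 mitochondrial and 85 ribosomal protein genes, and n counts libraries with at least 10 cells. They are compared between cell types or ages for 1 gene at a time, never between genes.

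Grm5 (mm9, chromosome 7, 94750952 to 95283417), the group I receptor, was highest in both neuronal classes at P60. Its mean level was 166 ± 31.0 CPM (SD, n = 12) in inhibitory and 153 ± 11.5 CPM (n = 12) in excitatory neurons. These neighbours were not separated, since the inhibitory level was higher in 7 of 12 libraries. OPC followed with 72.7 ± 25.4 CPM (n = 11), below the excitatory level in 11 of 11 libraries and above microglia in 11 of 11. The remaining classes had means from 24.7 CPM in microglia to 8.68 CPM in endothelial cells, and neighbours among them overlapped. Within the 29 neuronal clusters seen in at least 6 P60 libraries, Grm5 ranged from 246 ± 39.5 CPM in Exc_4 to 77.0 ± 13.4 CPM in Exc_22. Inhib_7 (240 CPM) and Exc_3 (237 CPM) stood next to the top, while Exc_18 (79.7 CPM) stood next to the bottom. Cluster orders given for the other genes cover the same 29 clusters, since most inhibitory clusters had cells in fewer libraries. Of the inhibitory clusters only Inhib_2, Inhib_7 and Inhib_9 are among them.

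Grm2 (mm9, chromosome 9, 106546868 to 106558440), a group II receptor known as an autoreceptor of glutamatergic axons, was largely a transcript of excitatory neurons. There it measured 25.4 ± 4.72 CPM (n = 12), above the next class, OPC, in 11 of 11 libraries, and all other classes had means of 1.297 to 3.75 CPM. Among clusters Exc_10 (65.7 ± 19.5 CPM, n = 12) and Exc_11 (55.6 ± 17.01 CPM, n = 11) were highest. No Grm2 UMI was counted in the 94 Inhib_2 cells of 6 libraries, where 3 UMIs would have been 3.36 CPM. With P60 libraries pooled, without a spread, Grm2 reached 18.5 CPM in Inhib_3, while excitatory clusters ran from 2.57 CPM in Exc_20 to 69.5 CPM in Exc_10. Grm3 (chromosome 5, 9485236 to 9725352), the other group II receptor, had a different order. It was highest in astrocytes (265 ± 58.9 CPM, n = 11), then in oligodendrocytes (127 ± 25.1 CPM, n = 12), then in excitatory neurons (54.3 ± 8.48 CPM, n = 12), with each step the same way in every library that held both classes. Endothelial cells (25.1 ± 4.29 CPM) lay below excitatory neurons in 12 of 12 libraries, and newly formed oligodendrocytes (NF Oligo) were lowest. Among neuronal clusters Grm3 ran from 94.7 ± 11.8 CPM in Exc_23 to 4.70 ± 5.02 CPM in Inhib_7.

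The group III receptors sit mostly at transmitter release sites. Grm7 (chromosome 6, 110595575 to 111517224), the most widely distributed of them in brain, had 50.2 ± 4.41 CPM in excitatory neurons. In inhibitory neurons it had 26.5 ± 15.3 CPM, less than in excitatory neurons in 11 of 12 libraries. Over the 29 clusters seen in at least 6 libraries its levels ran from 81.6 ± 26.6 CPM in Exc_11 to 8.23 ± 4.30 CPM in Inhib_7. Grm8 (chromosome 6, 27225121 to 28085178) was likewise lower in inhibitory neurons in 11 of 12 libraries, at 8.42 ± 14.1 CPM against an excitatory 22.1 ± 2.47 CPM. That inhibitory mean rests on 1 saline Maintenance library with 7 UMIs in 19 cells (51.9 CPM), without which it was 4.46 ± 3.50 CPM (n = 11), a value computed after seeing the data. Among clusters Grm8 had 38.7 ± 8.15 CPM in Exc_25 and 1.77 ± 2.57 CPM in Inhib_7. The class order of either gene did not hold for every cluster when P60 libraries were pooled, without a spread. Pooled Grm7 ran from 0 CPM in Inhib_12 to 84.2 CPM in Inhib_4, and from 23.5 CPM in Exc_18 to 74.1 CPM in Exc_11. Pooled Grm8 ran from 0 CPM in Inhib_1 to 29.7 CPM in Inhib_4, and from 3.79 CPM in Exc_1 to 35.6 CPM in Exc_25. For Grm4 (chromosome 17, 27559332 to 27650286) the order was the other way round. Inhibitory neurons had 11.04 ± 4.66 CPM, more than the 5.29 ± 1.29 CPM of excitatory neurons in 10 of 12 libraries. Of the 29 clusters seen in at least 6 libraries, Exc_21 had the highest mean Grm4 level, 19.5 ± 8.89 CPM. Exons of Grm7 overlap a transcript on the opposite strand, and those of Grm8 hold a microRNA on the same strand.

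Homer1 (mm9, chromosome 13, 94073712 to 94174917) was highest in excitatory neurons, at 143 ± 20.6 CPM (n = 12) against 48.1 ± 9.68 CPM in inhibitory neurons, and higher in 12 of 12 libraries. The gene-level counts sum all of its transcripts, so that the short inducible form cannot be told apart from the long scaffold forms. Exc_18 had the highest Homer1 level (297 ± 123 CPM, n = 7), above the next cluster by mean, Exc_1 (214 ± 62.9 CPM), in 7 of 7 libraries. With P60 libraries pooled, without a spread, Exc_26 (243 CPM) lay between Exc_18 (259 CPM) and Exc_1 (202 CPM). Exc_21 (52.7 ± 16.6 CPM) and Inhib_9 (48.0 ± 35.0 CPM) were at the low end. Homer2 (chromosome 7, 88745367 to 88851811), a long scaffold form, showed the opposite order of the neuronal classes at P60. It measured 71.3 ± 16.8 CPM in inhibitory neurons, 53.2 ± 27.9 CPM in NF Oligo (lower than inhibitory neurons in 8 of 11 libraries) and 20.5 ± 2.59 CPM in excitatory neurons. Inhib_7 carried 107 ± 34.0 CPM (n = 9), above Inhib_9 in 6 of 6 libraries, and the highest excitatory cluster was Exc_2 with 49.8 ± 15.5 CPM. Not every inhibitory cluster was rich in Homer2. With P60 libraries pooled, without a spread, it ran from 11.1 CPM in Inhib_1 to 123 CPM in Inhib_8, and from 4.15 CPM in Exc_13 to 48.9 CPM in Exc_2. Homer3 (chromosome 8, 72806726 to 72818260) was a transcript of glia and vessels, with 17.3 ± 12.7 CPM in NF Oligo, 13.5 ± 4.57 CPM in endothelial cells, 9.98 ± 5.41 CPM in oligodendrocytes and 0.410 ± 0.250 CPM in excitatory neurons. Its exons overlap Ddx49 on the opposite strand, and whether this affects its counts was not tested.

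**Figure D1:**
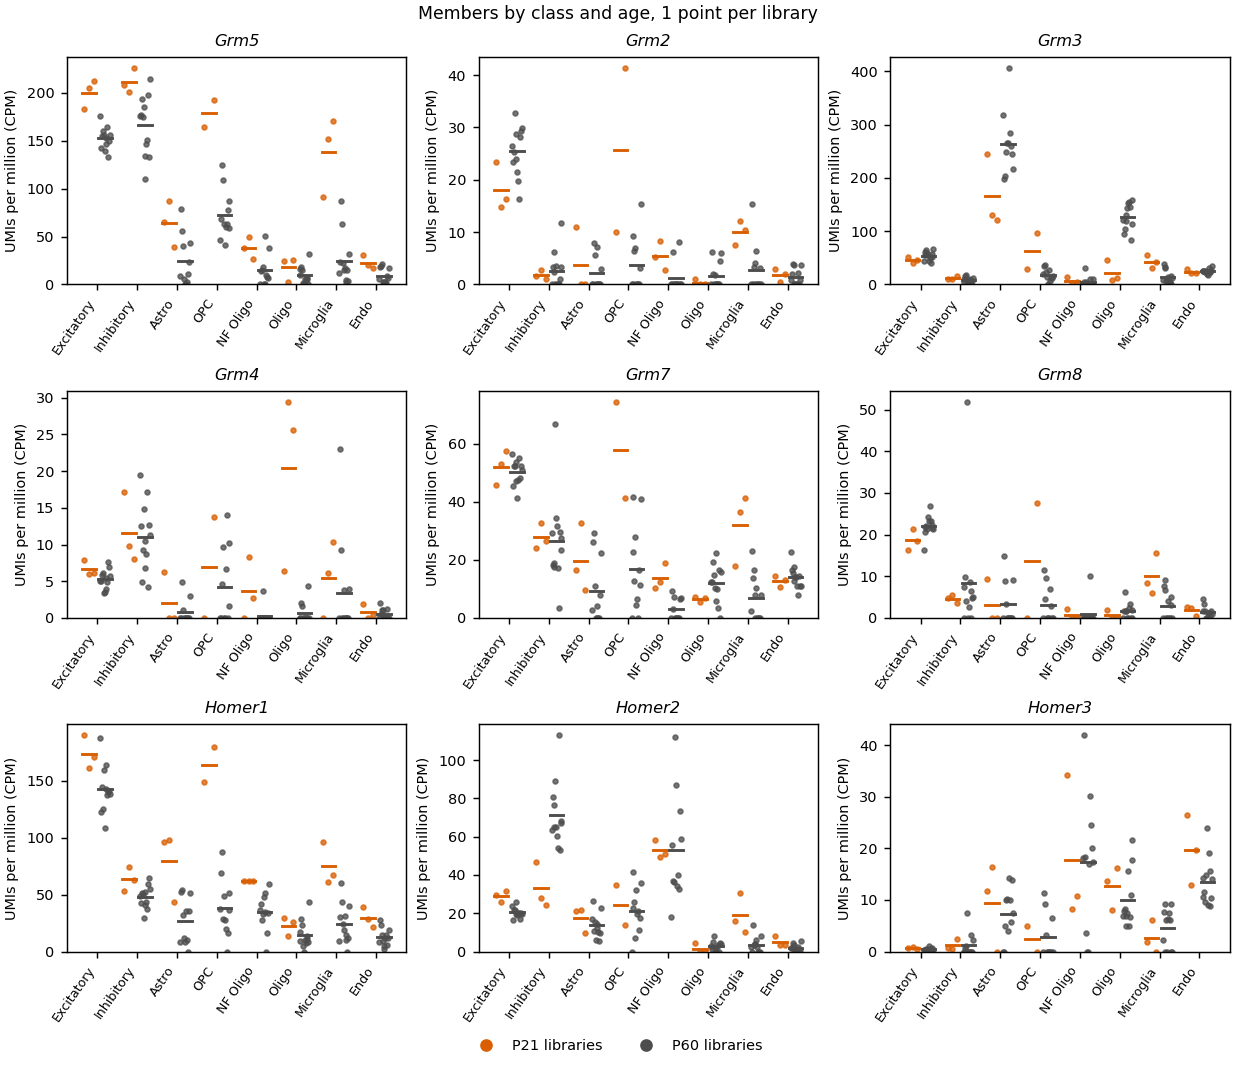
Level of each member (CPM, vertical axis from 0) in the 8 classes, with 1 point per library of at least 10 cells, P21 in orange and all P60 libraries, saline and cocaine, in grey, and a bar at the mean. Grm3 was highest in astrocytes and oligodendrocytes, Homer1 in excitatory neurons and Homer2 in inhibitory neurons and NF Oligo at P60, and the P21 OPC and microglia points for Grm5 and Homer1 lie above most P60 points.

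To ask how these genes differ between the ends of adolescence, the P21 libraries were compared with the 6 saline P60 libraries. UMIs were summed per library and class and tested with edgeR's quasi-likelihood test, with Benjamini-Hochberg (BH) adjustment over all genes tested. A gene was called when its adjusted p was below 0.05 and it differed by more than 1.5-fold. Log2 changes are P60 minus P21, so that a negative value is a lower level at P60. Ages were collected in separate libraries, and the P60 mice, unlike the P21 mice, had gone through the self-administration protocol, so age, procedure and library preparation cannot be told apart. The p-values measure the spread between libraries, would be too small if P21 libraries share animals, and clusters of 1 library share its source. In all, 30 member tests could be made over the 8 classes, and 6 were called (16.4% of the 58286 gene tests in these classes were, so the members' share was near that of all genes).

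In excitatory neurons none of the 8 members tested was called (18.1% of 13135 genes were), while 6 of the 8 had an adjusted p below 0.05 at less than 1.5-fold (38.7% of genes had such a p at any fold). Homer3 was too low to be tested. Of the 6, Grm5, Homer1 and Homer2 were lower at P60, and Grm2, Grm3 and Grm8 were higher.

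Grm5 measured 183, 205 and 212 CPM in the 3 P21 libraries. In the 6 saline P60 libraries it had a lowest value of 133, a median of 151 and a highest value of 161 CPM. The groups did not overlap, and the 6 cocaine P60 libraries, with 143 to 176 CPM, also lay below the P21 values. The log2 change was -0.39 ± 0.08 (SE), with an edgeR BH-adjusted p of 0.0020. The adjusted p stayed below 0.05 in 18 of 19 alternatives, with changes between -0.45 and -0.34, and was 0.065 against the saline Maintenance libraries alone.

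Homer1 had levels of 190, 161 and 170 CPM at P21 against 108, 141 and 159 CPM (lowest, median and highest) in the saline libraries. These groups also did not overlap, although the cocaine P60 libraries, with 123 to 187 CPM, did reach into the P21 range. The change was -0.31 ± 0.10 (edgeR, adjusted p = 0.029), and the adjusted p was above 0.05 in 6 of 19 alternatives. These were the omission of P21 library 1 (-0.24), P21 library 3 (-0.32) or P60 library 12 (-0.28), all P60 libraries (-0.24), the saline Maintenance libraries alone (-0.33) and the omission of the 15 d saline libraries (-0.29). Because Homer1 is an activity-dependent gene, the summed level of 15 immediate early genes, transcripts induced by activity and by handling of tissue, is given beside it. That sum was 1083 to 1115 CPM at P21 and 462 to 679 CPM in the saline libraries, and its part in the Homer1 difference was not tested.

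Homer2 measured 29.7, 25.7 and 31.5 CPM at P21 and 16.99, 20.9 and 26.0 CPM (lowest, median and highest) in the saline libraries. Here 1 saline library, of the Maintenance phase, lay above the lowest P21 value. The log2 change was -0.43 ± 0.11 (edgeR, adjusted p = 0.0092), and the adjusted p stayed below 0.05 in 17 of 19 alternatives. It was 0.055 without P21 library 3 (-0.37) and 0.226 against the saline Maintenance libraries alone (-0.30).

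Both group II receptors were higher at P60. Grm2 had 23.4, 14.7 and 16.2 CPM at P21 and 19.8, 26.7 and 32.8 CPM (lowest, median and highest) in the saline libraries, with a change of 0.57 ± 0.16 (edgeR, adjusted p = 0.015). Grm3 had 52.2, 40.7 and 44.97 CPM at P21 and 50.5, 58.4 and 64.9 CPM in the saline libraries, with a change of 0.38 ± 0.10 (edgeR, adjusted p = 0.0084). For each of these genes P21 library 1 reached into the saline range. Summed astrocyte markers in excitatory neurons were 31.6 to 52.1 CPM at P21 and 62.3 to 143 CPM in the saline libraries. Of the 4 markers 3 had lower means at P21, most of the sum was Aldoc, Gja1 and Aqp4 were near 0 at both ages, and their part in the Grm3 difference was not tested. Leaving out 1 library took the Grm2 change from 0.44 to 0.82, on both sides of the 1.5-fold limit. The adjusted p of Grm2 stayed below 0.05 in 16 of 19 alternatives, not without P21 library 2 (0.44) or 3 (0.50) or against the saline Maintenance libraries alone (0.58). That of Grm3 did so in 15 of 19, not without P21 library 2 (0.29), against all P60 libraries (0.29) or the saline Maintenance libraries alone (0.36), or with thinned cells (0.32). Of the group III receptors, Grm8 was higher at P60 by 0.36 ± 0.12 (edgeR, adjusted p = 0.029), with 16.3, 21.3 and 18.4 CPM at P21 and 21.3, 22.2 and 26.8 CPM in the saline libraries, and its adjusted p stayed below 0.05 in 12 of 19 alternatives, not without P21 library 1 (0.26) or 3 (0.35) or P60 library 3 (0.32), 5 (0.30) or 7 (0.35), nor with thinned cells (0.23) or against the saline Maintenance libraries alone (0.36). Grm7 (-0.01 ± 0.08, adjusted p = 0.95) and Grm4 (-0.29 ± 0.22, adjusted p = 0.32) did not pass.

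**Figure D2:**
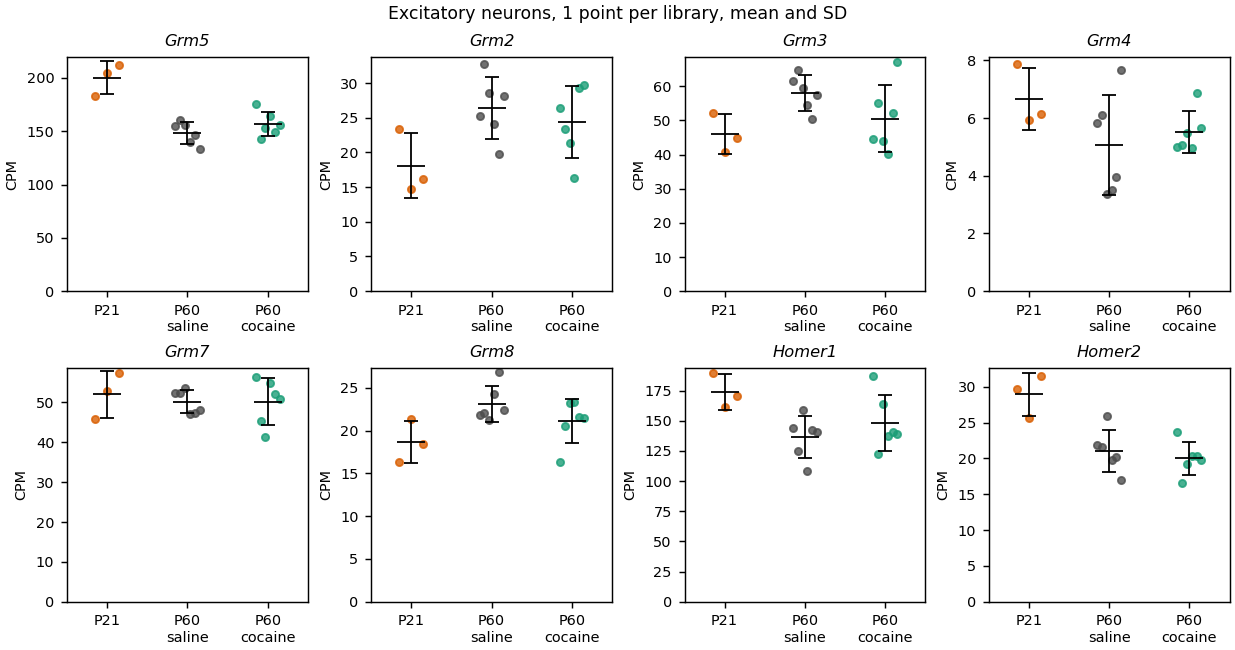
Level of 8 members in excitatory neurons (CPM, vertical axis from 0), with 1 point per library for P21 (3), P60 saline (6) and P60 cocaine (6), a long tick at the mean and bars of 1 SD. For Grm5 all P60 libraries lie below the lowest P21 value of 183 CPM, whereas Grm7 has overlapping groups.

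A class level can differ because the class is made of other clusters. Therefore the pooled excitatory levels were recomputed with the cluster shares held fixed. For Grm5 the pooled log2 difference of -0.38 became -0.45 with P21 levels at P60 shares and -0.39 with P60 levels at P21 shares. Homer1 (-0.38 against -0.39 and -0.29), Homer2 (-0.49 against -0.50 and -0.42) and Grm8 (0.33 against 0.43 and 0.40) moved little. By contrast, the Grm2 difference of 0.48 shrank to -0.01 and 0.13, and that of Grm3 from 0.31 to 0.17 and 0.18. These pooled values carry no spread and were not tested.

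The same comparison was made inside each L2 cluster with enough cells, which gave 180235 gene tests over 29 clusters, 157 of them on members. Of these, 15 were called lower at P60 (6.34% of all tests) and 3 were called higher (4.27% of all tests). Grm5 was lower at P60 in 26 of 26 excitatory clusters, with a median log2 change of -0.40. A gene that was lower in every excitatory cluster was no rarity, as 11.6% of the 3478 genes tested in all 26 were. The Grm5 call was reached in 7 clusters (Exc_1, 13, 16, 17, 22, 24 and 25). Over all 26 clusters its change ranged from -0.96 in Exc_22 to -0.02 in Exc_2. In Exc_22, the cluster with the lowest adult level, Grm5 measured 127, 159 and 160 CPM at P21 and 56.4, 57.7, 69.2, 80.8 and 82.7 CPM in the 5 saline libraries with enough cells. These groups were far apart, with an SE of 0.17 and an edgeR BH-adjusted p of 0.00026.

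Homer1 was lower in 24 of 26 excitatory clusters (19.6% of genes were lower in 24 or more), with a median change of -0.38. The exceptions, neither of which passed the test, were Exc_18 (0.14), the cluster richest in Homer1, and Exc_19 (0.25). Calls were made in Exc_7 (-0.97 ± 0.20, adjusted p = 0.0054) and Exc_8 (-0.60 ± 0.14, adjusted p = 0.0043), both by edgeR. In Exc_7 Homer1 measured 113, 124 and 99.3 CPM at P21 and 66.4, 53.2, 44.1 and 42.1 CPM in 4 saline libraries, without overlap.

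Homer2 was lower at P60 in 14 of the 15 excitatory clusters in which it could be tested, and fell in Exc_4 (-0.90), Exc_19 (-1.17), Exc_22 (-0.89) and Exc_25 (-0.72). Grm3 was higher in 21 of 25 clusters and rose in Exc_9 (0.68) and Exc_14 (0.90). Grm8 was higher in 12 of 16, but the call was made in Exc_9 alone. There Grm8 had 6.0, 3.9 and 2.2 CPM at P21 and 9.8 to 25.7 CPM in the saline libraries, with a log2 change of 1.89 ± 0.40 (edgeR, adjusted p = 0.0019). Grm7, level in the class, was lower in 16 and higher in 10 clusters, and fell in Exc_22 (-0.65) and Exc_25 (-0.66). Grm2 was lower in 8 and higher in 7 of 15 clusters, with 0 called. For Homer2, Grm3, Grm8, Grm7 and Grm2 the share of all genes with as one-sided a count was not computed.

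**Figure D3:**
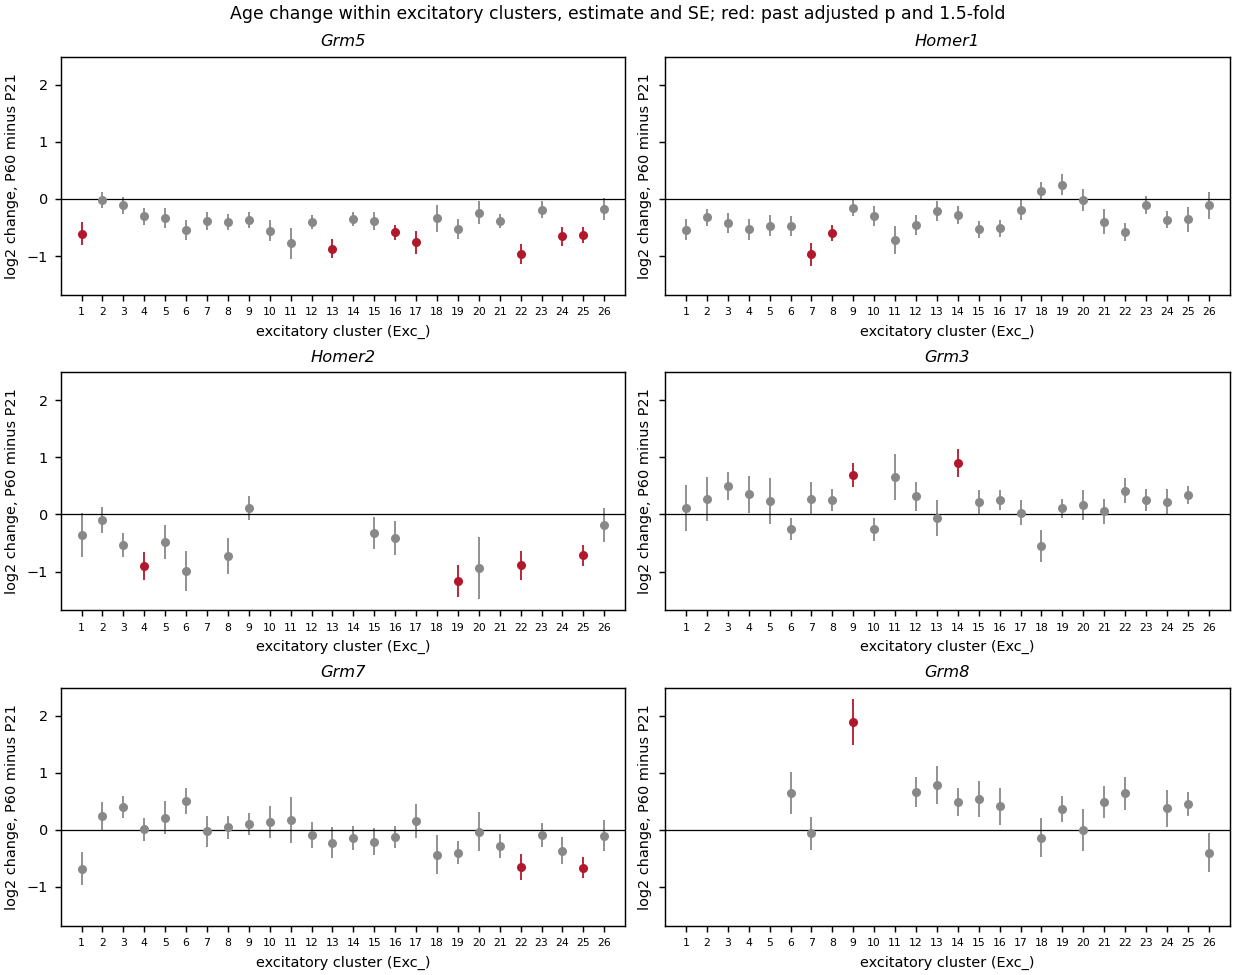
Log2 change from P21 to P60 saline (vertical axis) of 6 members in each excitatory cluster (horizontal axis, number of the Exc_ cluster), with bars of 1 SE and the called changes in red. Grm5 lies at or below 0 in all 26 clusters, Homer1 in 24, and Grm8 has its single called rise, 1.89, in Exc_9.

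The inhibitory class gave the opposite sign for Homer2. It measured 46.8, 28.2 and 24.5 CPM at P21 and 53.1, 65.1 and 89.1 CPM (lowest, median and highest) in the saline libraries, without overlap. The log2 change was 0.95 ± 0.21 (edgeR, BH-adjusted p = 0.0040), and Homer2 was the only one of the 5 members tested in this class to be called, where 14.1% of 8763 genes were. The change in excitatory neurons minus that in inhibitory neurons was -1.47 ± 0.22 (limma on log2(CPM + 1) differences within libraries, adjusted p = 0.010, with 1.42% of genes called). Grm5 (-0.28, adjusted p = 0.13) and Homer1 (-0.35, adjusted p = 0.14) did not pass in inhibitory neurons. Neither gene was shown to differ from excitatory neurons in its change. The excitatory minus the inhibitory change was -0.12 ± 0.13 for Grm5 (limma, adjusted p = 0.78) and 0.12 ± 0.25 for Homer1 (limma, adjusted p = 0.89).

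The make-up of the inhibitory class differed between the ages. At P21, 35.5% of inhibitory cells were in Inhib_2 and 16.8% in Inhib_6, where pooled Homer2 was 7.46 and 12.5 CPM. In the saline libraries 35.7% were in Inhib_7, where Homer2 was 88.3 CPM, against 7.90% at P21, where it was 135 CPM. When the cluster shares were held fixed, the pooled Homer2 difference of 0.98 turned to -0.34 at the P60 shares and to -0.06 at the P21 shares. Inside Inhib_7 Homer2 was 144, 122 and 107 CPM at P21 and 87.9, 95.9, 92.2 and 75.3 CPM in 4 saline libraries, which did not overlap. That change, -0.64 ± 0.24, did not pass (edgeR, adjusted p = 0.14). The values at fixed shares are pooled over libraries, carry no spread and were not tested. The call was also lost when every cell was thinned to 2000 UMIs (0.68, adjusted p = 0.16) and against the 2 saline Maintenance libraries alone (1.14, adjusted p = 0.15).

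**Figure D4:**
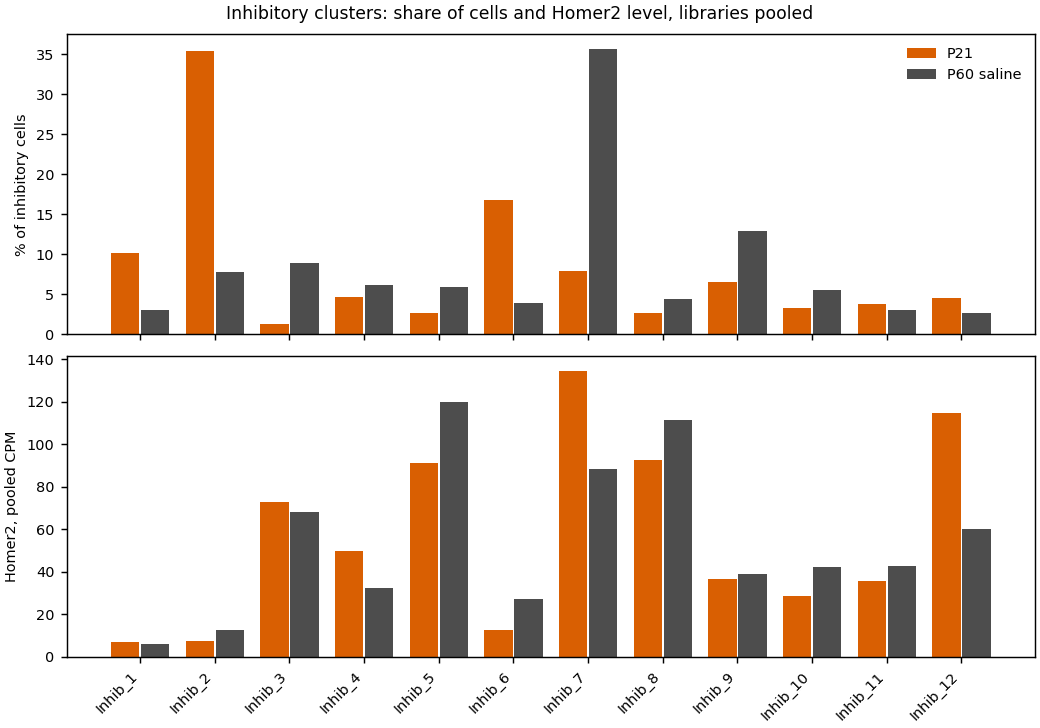
Share of inhibitory cells in each Inhib_ cluster (upper panel, percent) and pooled Homer2 level in the same cluster (lower panel, CPM), for P21 in orange and P60 saline in grey, libraries pooled and without error bars. Cells at P21 were mostly in clusters low in Homer2, with 35.5% in Inhib_2, and at P60 35.7% were in Inhib_7.

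In oligodendrocytes, the myelinating cells, Grm3 was higher at P60. It measured 46.4, 8.04 and 11.6 CPM at P21 and 82.7, 124 and 156 CPM (lowest, median and highest) in the saline libraries, without overlap. The log2 change of 2.00 ± 0.38 (edgeR, adjusted p = 0.0032) was called, as 16.4% of 5194 genes were, and it held in 19 of 19 alternatives, from 1.77 to 3.52. The change in excitatory neurons minus that in oligodendrocytes was -2.45 ± 0.42 (limma, adjusted p = 0.0070, with 7.09% of genes called). With each cell thinned to 2000 UMIs, 3.91% ± 3.86 of P21 and 20.4% ± 4.10 of P60 saline oligodendrocytes had a Grm3 UMI (two-sided exact permutation test, p = 0.0238, the smallest that 3 against 6 libraries allow). The Grm3 shares of endothelial cells were 4.05% at P21 and 4.03% in the saline libraries. Those of microglia were 6.79% and 1.31% (exact permutation test, p = 0.0238), but 147 of the 329 P21 microglia had a cluster of another class, and summed excitatory markers in microglia were 1844 to 2373 CPM at P21 and 108 to 1478 CPM in the saline libraries. In microglia with a matching cluster the Grm3 level was 10.6 ± 18.3 CPM at P21 (n = 3) and 15.95 ± 12.2 CPM in the saline libraries (n = 6). These P21 cells held 12 Grm3 UMIs in all, and their libraries ranged from 0 to 31.7 CPM, against 5.005 to 32.2 CPM. The ranges overlapped and a level is not a share, so no direction is read from them. Summed oligodendrocyte markers were 9729 to 12944 CPM at P21 and 8374 to 11054 CPM in the saline libraries. Summed astrocyte markers in this class were 83.1 to 130 CPM at P21 and 218 to 450 CPM in the saline libraries, with all 4 of 4 markers lower at P21. Summed OPC markers were 357 to 405 CPM at P21 and 146 to 350 CPM in the saline libraries, nearly all of them Olig1, with Pdgfra and Cspg4 near 0 at both ages. The part of either marker list in the Grm3 and Grm4 differences was not tested.

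Grm4 in the same cells went the other way. The P21 libraries held 13, 11 and 11 Grm4 UMIs (6.36, 29.5 and 25.6 CPM), whereas the 6 saline libraries held 3 UMIs in all and the 6 cocaine libraries 1. These counts were under the low-count filter, so that no fold is given. Thinned, 3.56% ± 2.82 of P21 oligodendrocytes had a Grm4 UMI and 0 of 782 saline ones did (exact permutation test, p = 0.0238). A count of 0 of 782 cells allows a share of up to 0.384%, a limit on thinned cells with a UMI that covers counting error only and says nothing of how many cells express the gene. The P21 endothelial share was 0.143%. Median depths in oligodendrocytes were 5339 UMIs per cell at P21 and 3626 at P60. In the 512 P21 oligodendrocytes whose class and cluster matched, 32 of the 35 UMIs were retained. Grm7 had a thinned share of 0.613% at P21 and 2.69% in the saline libraries (exact permutation test, p = 0.0238). Over the 72 thinned share comparisons the lowest BH-adjusted p was 0.214, so none passed the correction. In excitatory neurons the thinned share of cells with a Grm5 UMI was 31.2% ± 1.84 at P21 and 24.4% ± 2.37 in the saline libraries (exact permutation test, p = 0.0238), with median depths of 9102 UMIs per cell at P21 and 13616 UMIs at P60. The thinned share for Homer1 was 25.8% at P21 and 20.4% in the saline libraries (exact permutation test, p = 0.0238). For comparison, 0.926% of saline oligodendrocytes had a Grm5 UMI and 1.73% had a Homer1 UMI after thinning. Without thinning both excitatory differences turned, to 4.61 and 5.41 percentage points higher at P60, where cells were deeper.

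In microglia, the resident macrophages, Grm5 measured 91.5, 152 and 171 CPM at P21 and 2.502, 18.8 and 87.5 CPM (lowest, median and highest) in the saline libraries. Its change was -1.67 ± 0.56 (edgeR, adjusted p = 0.034), in a class where 42.4% of 4482 genes were called. The call held in 10 of 18 alternatives. It was lost without the low-count filter (-1.59, adjusted p = 0.094) and when any of 6 single libraries was left out (P21 library 1, 2 or 3, P60 library 2, 3 or 7), with changes of -1.88 to -1.49. The summed excitatory markers in microglia were 1844 to 2373 CPM at P21 and 108 to 1478 CPM in the saline libraries, with 4 of 4 markers higher at P21. In the P21 microglia whose class and cluster matched, Grm5 was 23.7 ± 20.9 CPM (n = 3) against 34.3 ± 33.3 CPM in the saline libraries, and the change was 0.27 (adjusted p = 1.0). The difference of the Grm5 age change between excitatory neurons and microglia did not pass (2.17 ± 0.84, limma, adjusted p = 0.062, with 39.7% of genes called).

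In OPC only 2 P21 libraries had enough cells. Homer1 measured 149 and 179 CPM there and 16.7, 19.9, 28.9, 48.8 and 87.6 CPM in 5 saline libraries, a change of -2.08 ± 0.49 (edgeR, adjusted p = 0.010). Grm5 fell by 1.01 ± 0.33 on the log2 scale (edgeR, adjusted p = 0.041), and 20.5% of 4940 genes were called in this class. The Grm5 call held in 8 of 14 alternatives. It was lost with cells thinned to 2000 UMIs (-0.49, adjusted p = 0.66), with DESeq2 (-1.04, adjusted p = 0.13), without the low-count filter (-0.90) and without P60 library 2 (-0.92), 5 (-0.89) or 7 (-0.95), while that of Homer1 was not lost without any 1 library. The Homer1 change in excitatory neurons minus that in OPC was 1.95 ± 0.57 (limma, adjusted p = 0.047, with 18.7% of genes called). The P21 values came with 2811 to 2881 CPM of summed excitatory markers against 181 to 1573 CPM, again with 4 of 4 markers higher, and with 290 to 507 CPM of summed OPC markers against 1116 to 2086 CPM. Once restricted to cells with a matching class and cluster, OPC could not be fitted, as 1 P21 library with 14 cells was left.

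Endothelial Homer1 measured 38.8, 29.0 and 21.3 CPM at P21 and 2.00, 10.3 and 23.1 CPM in the saline libraries. That fall of 1.37 ± 0.40 on the log2 scale was called (edgeR, adjusted p = 0.042, with 13.3% of 10645 genes called), but it was -0.45 (adjusted p = 0.51) in matching cells, and summed excitatory markers were 259 to 617 CPM at P21 and 42.0 to 495 CPM in the saline libraries. It was also lost with cells thinned to 2000 UMIs (-0.64, adjusted p = 0.35), without the low-count filter (adjusted p = 0.078) and when any of 7 single libraries was left out (all but P60 libraries 3 and 11), with changes of -1.54 to -1.11. No member was called in astrocytes (7.61% of 6374 genes), where Grm3 measured 245, 131 and 122 CPM at P21 and 203 to 407 CPM in 5 saline libraries (0.79 ± 0.30, adjusted p = 0.12). In the astrocytes with a matching cluster Grm3 was 236 ± 110 CPM at P21 (n = 3) and 277 ± 76.9 CPM in the saline libraries (n = 5). None was called in NF Oligo (5.98% of 4753 genes), where Homer1 came nearest (-0.97 ± 0.32, edgeR, adjusted p = 0.071). Homer3 could be tested only in endothelial cells (-0.46, adjusted p = 0.28).

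Genes that act with these receptors and scaffolds were counted in excitatory neurons by list, where 18.1% of all genes were called in either direction. Of 19 Gi/o signalling genes, 4 were called lower at P60 and 1 higher, with a median of -0.27 against -0.01 over all genes. Rgs14, a regulator of G protein signalling, rose by 1.11, whereas the G protein subunits Gnb1 (-0.92) and Gnaz (-0.66) fell. Of 16 tested Gq and calcium signalling genes (median -0.18), 1 was called, Itpr2 (-0.97), a calcium release channel of the endoplasmic reticulum. The Homer-linked scaffold list had 1 call among 18 genes, Ryr3 (-0.68), also a calcium release channel, and a median of 0.01. Of 12 tested receptor partners (median -0.22) 2 fell, the exchange factor Cyth2 (-0.94) and the ubiquitin ligase Siah1a (-0.66), and of 11 tested plasticity effectors (median -0.04) 0 were called. Of 15 immediate early genes, 11 fell and the median was -0.99, led by Ier2 (-2.66), Egr2 (-2.50) and Junb (-2.07).

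To ask whether cocaine self-administration moved these genes, cocaine and saline libraries were compared within each period, over the 3 periods and between periods, in 1 edgeR fit of the 12 P60 libraries. None of the 192 member tests in classes was called, and the lowest BH-adjusted p was 0.484. Few genes of any kind were called: 0.00459% of gene tests in Maintenance, 0.00661% at 48 h, 0.325% at 15 d, 0.00688% over all periods and 0.00338% between periods. At an unadjusted p below 0.05 there were 7 member tests, 3.65% of them against 4.87% of all gene tests. DESeq2 also called 0. Groups of 2 libraries in a period allow only large differences to be seen, and astrocytes, OPC and NF Oligo had too few cells for the Maintenance contrast.

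The smallest unadjusted p-values in excitatory neurons belonged to Homer1 and Grm3. Homer1 in Maintenance measured 159 and 108 CPM in the saline and 187 and 164 CPM in the cocaine libraries. The cocaine values were above both saline values, and the log2 difference was 0.39 with a 95% interval of 0.10 to 0.67 (edgeR, adjusted p = 0.74). At 48 h Homer1 was 143 and 140 CPM with saline against 137 and 141 CPM with cocaine, and at 15 d 144 and 125 CPM against 139 and 123 CPM, with intervals of -0.32 to 0.23 and -0.27 to 0.27. The difference between the 48 h and Maintenance effects was -0.43 (edgeR, adjusted p = 1.0).

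Grm3 in Maintenance was 59.5 and 54.4 CPM with saline and 44.4 and 44.1 CPM with cocaine. At 48 h it was 50.5 and 57.3 CPM against 40.1 and 52.0 CPM, and at 15 d 61.6 and 64.9 CPM against 67.2 and 55.03 CPM. The Maintenance groups were apart and the later ones overlapped. Over the 3 periods the difference was -0.21 with an interval of -0.37 to -0.05 (edgeR, adjusted p = 0.48). Grm5 over all periods differed by 0.08 (-0.04 to 0.21) and Grm2 by -0.11 (-0.43 to 0.21), and larger differences lay outside these intervals.

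Inside L2 clusters 0 of 720 member tests were called, with a lowest edgeR adjusted p of 0.210. Of all gene tests in clusters, 0.00646% were called in Maintenance, 0.00553% at 48 h, 1.21% at 15 d and 0.0392% over all periods. The unadjusted p was below 0.05 in 54 member tests, 7.5% against 5.68% of all gene tests. The smallest of them was for Grm3 in Exc_14 at 48 h, with a log2 difference of -1.09 ± 0.29 (edgeR, adjusted p = 0.52).

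**Figure D5:**
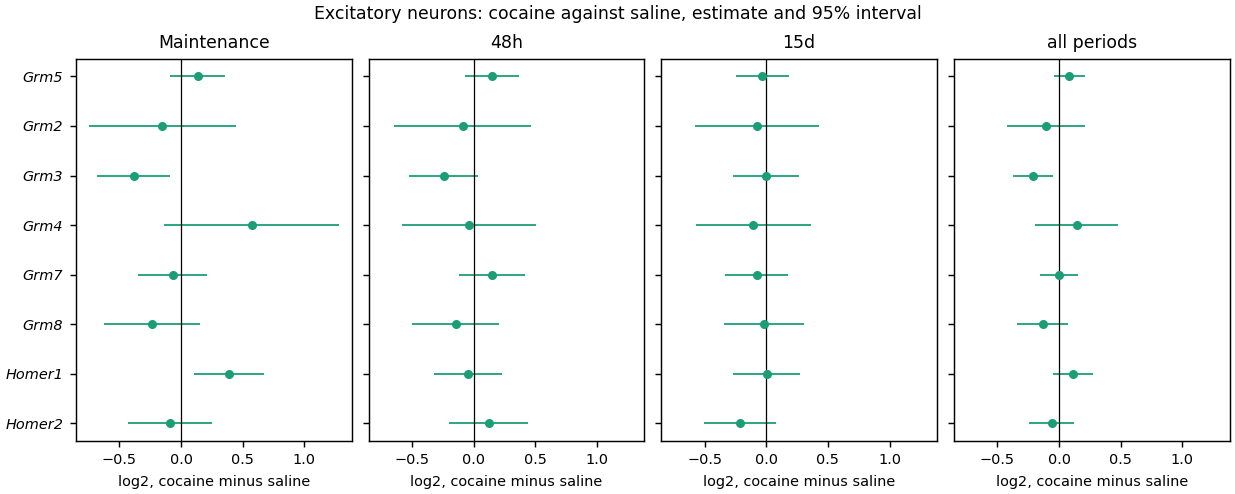
Log2 difference of cocaine minus saline (horizontal axis) for 8 members in excitatory neurons within Maintenance, 48 h and 15 d and over all periods, with 95% intervals from the edgeR fit. Most intervals cross 0; those of Homer1 and Grm3 in Maintenance and of Grm3 over all periods do not before adjustment, and no member passed the adjusted p.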

How the data were processed

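The authors aligned the reads to mm9 and counted UMIs per gene and cell barcode with Cell Ranger, and the deposited values are raw UMI counts. They removed cells with few genes, many mitochondrial transcripts or signs of double droplets, clustered with Seurat 2.1.0, and named P21 cells by their likeness to P60 clusters. The deposited class and cluster of each cell were used. No further doublet caller was run, and the deposited joined expression matrix was not used.

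From the counts, UMIs were summed per library and class or L2 cluster (at least 10 cells, 2 libraries per group) in Python 3.11.15, without mitochondrial and ribosomal protein genes. Sums were filtered with filterByExpr and tested with edgeR 4.0.16 (TMM, robust quasi-likelihood, R 4.3.3). Differences between classes used limma 3.58.1 on log2(CPM + 1), and shares used exact permutation tests (scipy 1.17.1) on cells thinned to 2000 UMIs, which 106 cells did not reach. The edgeR fits were checked on simulated data. Positions use NCBIM37, promoters GRCm38.p6. Alternatives covered DESeq2 1.42.0, RLE size factors, filters, fold, cell minimum, matching cells, thinning, other P60 libraries and leaving out each library. Every member is reported. Of each list the called genes with the largest change in excitatory neurons, at most 3, are named. The members and lists were chosen with earlier results of these data known.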

Additional observations from a re-analysis of the deposited data

Results flagged for a closer look

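Grm7 in inhibitory neurons stood at 66.8 CPM in 1 saline Maintenance library, far above the other 5 saline libraries (17.3 to 34.3 CPM), and rests on 9 UMIs in 19 cells. It was the single sample of its kind in 19 groups tested with Dixon's criterion, which chance passes in about 1 of 20 groups. The age change (P60 saline minus P21, log2) differed between classes for 3 members by limma with BH adjustment. For Homer2 the excitatory change minus the inhibitory change was -1.47 (adjusted p = 0.010), and the inhibitory part turned with a fixed cluster make-up. For Grm3 the excitatory change minus the oligodendrocyte change was -2.45 (adjusted p = 0.0070). For Homer1 the excitatory change minus the OPC change was 1.95 (adjusted p = 0.047), in P21 OPC of which 29 of 51 cells had a cluster of another class.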

How the results depend on the processing

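No paired analysis was possible because the library numbers tie no P21 library to a P60 library. The 6 calls of members by class became 12 without the fold limit, 2 with cells thinned to 2000 UMIs and 2 with cells of matching class and cluster. Leaving out 1 library gave 2 to 8 calls, with 2 without P21 library 2 and 3 without P60 library 2 or P60 library 7. The 18 calls in clusters became 28 without the fold limit and 10 to 21 without 1 library, with 10 without P21 library 3. These cluster alternatives, the fixed cluster make-up and the omission of the 15 d saline libraries (9 class calls) were chosen after seeing the data. DESeq2 gave 5 class and 13 cluster calls. The share of all genes called under each alternative is not given beside these counts, so they are not read as a result about the members. Among values with a called change or an unadjusted p below 0.05, microglial Grm5 turned in matching cells (0.27). Unthinned shares of Grm5 and Homer1 in excitatory neurons (4.61 and 5.41 points) and of Homer1 in NF Oligo (1.49 points) turned too. At fixed make-up Homer2 in inhibitory neurons turned (-0.34 and -0.06), as did Grm2 in excitatory neurons at the P60 shares alone (-0.01). Microglial Grm3, lower at P60 by its thinned share, was 10.6 CPM at P21 and 15.95 CPM in the saline libraries in matching cells. Those levels overlapped (0 to 31.7 against 5.005 to 32.2 CPM), so no direction is read from them. Of all 72 share comparisons, 16 changed sign without thinning. The Grm5 difference between excitatory neurons and microglia passed with a pseudocount of 5 CPM (1.87, adjusted p = 0.038). Leaving out 1 library took Grm5 in excitatory neurons from -0.45 to -0.34 (adjusted p below 0.05, under 1.5-fold), Homer2 in inhibitory neurons from 0.78 to 1.3 and Grm3 in oligodendrocytes from 1.77 to 3.52 (both called throughout). Cocaine calls were 0 in each class alternative. Inhibitory neurons had 19 to 363 cells per library, and each cocaine group had 2 libraries, which limits precision.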

Other observations

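The genes whose P60 levels ran most like those of each member over 44 classes and neuronal clusters, among 14419 genes, are given as a description, since these types share libraries and depth. For Grm5 they were Srrm3 (Pearson r = 0.902), Kifc2 and Rell2, and for Homer1 1110008P14Rik (0.942), Cnksr2 and Arhgap32. Homer2 ran most like Dpysl4 (0.755), Tceal8 and Eif1b, and Homer3 most like Dnm2 (0.865), Bcl2l12 and Nde1. For the group II receptors the closest genes were Hkdc1 (0.904), Uxs1 and Lmo4 with Grm2, and Pamr1 (0.803), Arap2 and Mcee with Grm3. For group III they were Scn1a (0.801), Rph3a and Lgi2 with Grm4, Car10 (0.876), Spint2 and Rnf169 with Grm7, and Dazl (0.815), 1600029O15Rik and Rab26 with Grm8.

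In inhibitory neurons the same lists were counted by age with edgeR, and the genes given here were picked after their values were seen. There 14.1% of 8763 genes were called in either direction, and 4 of 15 tested Gi/o genes fell (Rgs4 -1.05, Gnaz -0.92, Gnb1 -0.70 and Adcy2 -0.64 on the log2 scale). Of 14 tested Gq and calcium genes 1 was called, the cation channel gene Trpc5 (0.82), and of 13 tested scaffold genes 1 was called, Dlg2 (0.75). Of 9 tested plasticity effectors 0 were called by edgeR, with 2 at an unadjusted p below 0.05. Of 11 tested partner genes Ppp1cc (-1.03) and Elfn1 (-0.93) fell, and of 12 immediate early genes 0 were called by edgeR, with 5 at an unadjusted p below 0.05. Their median was -0.66 against 0.00 over all genes, and their sum was 873 to 1053 CPM at P21 and 156 to 957 CPM in the saline libraries.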
